A study of Mus musculus with 3 samples.

Results

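The genes described here are the colony-stimulating factor receptor genes of the mouse, Csf1r, Csf2ra, Csf2rb, Csf2rb2 and Csf3r, together with Csf1, which encodes a ligand of the Csf1r receptor. They were taken by their gene symbols, and all 6 were found among the 55536 genes of the deposited tables, of which 22028 are protein-coding. RNA attached to chromatin was sequenced, after removal of ribosomal RNA, in 3 libraries of macrophages that had been differentiated in culture from bone marrow of C57BL/6J mice. All 3 libraries belong to 1 group: the macrophages received Lipid A, the TLR4-activating part of bacterial lipopolysaccharide, at 100 ng/ml for 12 h, then spent 12 h after its removal, and were taken at minute 0 of another exposure. There is no untreated group, so no value here measures a response to Lipid A. The labels call the libraries biological replicates but give them a common donor identifier, so the spread between them may be partly technical. The libraries were made from unequal amounts of RNA: 1000 ng for replicate 1, 250 ng for replicate 2 and 500 ng for replicate 3. Age and sex of the animals are not given.

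Colony-stimulating factors are secreted proteins that keep myeloid cells alive and direct their production from bone marrow. The receptor of CSF-1, a tyrosine kinase encoded by Csf1r, also binds interleukin-34, and macrophages in culture depend on its signal. The receptor of GM-CSF is built from a ligand-binding alpha chain, Csf2ra, and a signalling beta chain, Csf2rb, which the receptors of interleukin-3 and interleukin-5 share. Mice carry a second beta chain gene, Csf2rb2, whose product serves interleukin-3. Csf3r encodes the receptor of G-CSF, the factor best known for the production of neutrophils. The alpha and beta chains and the G-CSF receptor have no kinase domain and signal through JAK kinases and STAT proteins.

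All 6 genes were well represented on chromatin. Levels are given in TPM, a unit per transcript length that sums to 1000000 in a library, from the alignment-based gene table, and ± stands for the SD over the 3 libraries. In order of mean level they were Csf2ra, Csf1r, Csf3r, Csf2rb, Csf2rb2 and Csf1. All 6 reached a mean of 10 TPM, as did 27.2% of protein-coding genes, and the median mean level of the protein-coding genes was 0.913 TPM. The highest in mean TPM, Csf2ra, stood at rank 174 of the 22028 protein-coding genes, and the lowest, Csf1, at rank 3445. In bulk RNA, fewer cells of a type and less RNA per cell cannot be told apart.

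**Figure D1:**
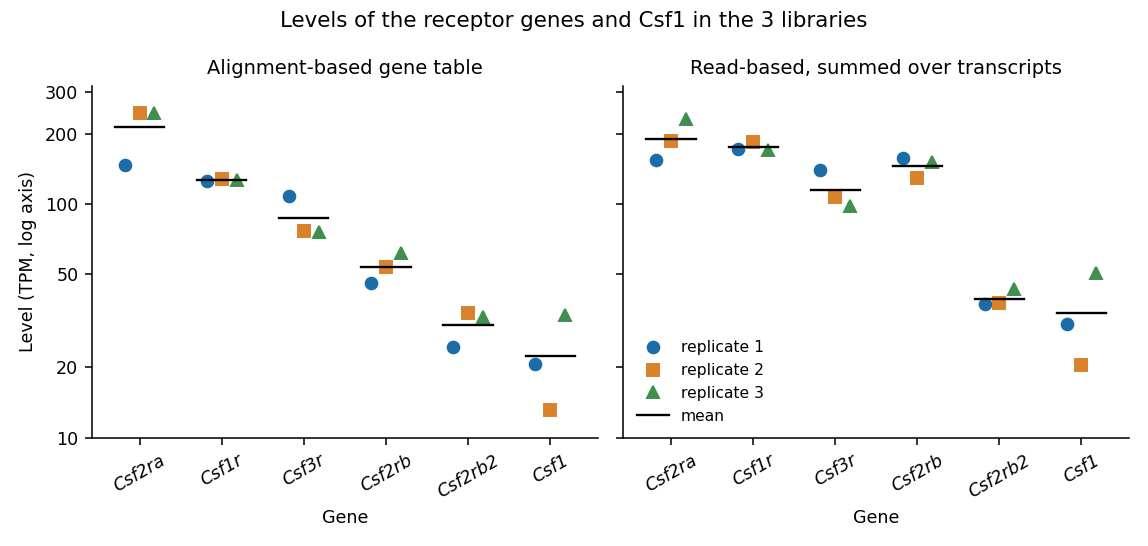
Level of each gene in TPM (log axis) in the 3 libraries, from the alignment-based gene table (left) and summed over transcripts in the read-based table (right). Points are libraries and horizontal lines are means; Csf2rb lies at 53.8 TPM on the left and at 146 TPM on the right, and Csf1 spreads most between libraries.

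Csf1r lies on chromosome 18 (61100598 to 61132149, plus strand, mm10). It had 125, 128 and 127 TPM in replicates 1, 2 and 3 (expected counts of 4204, 6525 and 6597), and averaged 127 ± 1.30 TPM (SD, n = 3). The libraries were close together in TPM, with a coefficient of variation of 1.02%, but this closeness depended on the scale. After TMM normalization, which scales each library by the bulk of its genes, Csf1r had 351, 400 and 327 CPM (counts scaled to a fixed library total). The read-based quantification placed the gene at 172, 184 and 170 TPM. Rank 396 among protein-coding genes put it above 98.2% of them.

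Of 6 annotated Csf1r transcripts, 5 received reads in the read-based table and 4 in the alignment-based table. Csf1r-201 and Csf1r-202 encode the same 977-residue receptor, and Csf1r-202 ends 1015 bases further downstream. They also differ at the start: Csf1r-201 begins at 61105572 and has 22 exons, and Csf1r-202 begins at 61105852 and has 21. Their shares are therefore not a measure of the downstream end alone. The quantifications disagreed about this pair. Csf1r-202 took 17.5%, 13.8% and 13.8% of the counts of the pair in the read-based table, against 57.9%, 66.9% and 57.0% in the alignment-based table. The longer end overlaps 873 bases of Hmgxb3, a gene on the opposite strand that stood at 20.8, 26.0 and 24.5 TPM. Whether counting used strand is not stated in the labels or file headers, and without strand, reads of the overlap cannot be assigned to either gene, so which end was used is uncertain. A transcript annotated with a retained intron, Csf1r-204, was assigned 21.8 ± 2.13% of the read-based TPM of the gene.

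Csf1, encoding the ligand CSF-1, lies on chromosome 3 (107741048 to 107760469, minus strand, mm10). It had 20.8, 13.1 and 33.5 TPM in replicates 1, 2 and 3 (expected counts of 586, 544 and 1697), and averaged 22.5 ± 10.3 TPM (SD, n = 3). Replicate 3 was the highest and replicate 2 the lowest, and read-based values of 30.8, 20.5 and 50.9 TPM had the same order. Without replicate 3 the mean was 16.9 TPM. This was the widest relative spread of the 6 genes, with a coefficient of variation of 46.0% against 1.02% to 26.5% for the receptor genes.

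Replicate 3 also stood apart in fibroblast and stromal markers. All 11 markers of the list were at least 2-fold higher in replicate 3 than in both other libraries, and their summed level was 606 TPM in replicate 3, against 0.14 TPM in replicate 1 and 1.95 TPM in replicate 2. Col1a1, a collagen gene, had 149 TPM in replicate 3, against 0.01 and 0.43 TPM in replicates 1 and 2, and Sparc, encoding a matrix protein, had 126 TPM in replicate 3, against 0 and 0.27 TPM. Fibroblasts and other stromal cells are known producers of CSF-1. Whether RNA of such cells had a part in the Csf1 level of replicate 3 was not tested. Replicates 1 and 2, in which the stromal markers were near 0, also differed in Csf1, by 0.55 in log2 CPM (replicate 1 over replicate 2).

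**Figure D2:**
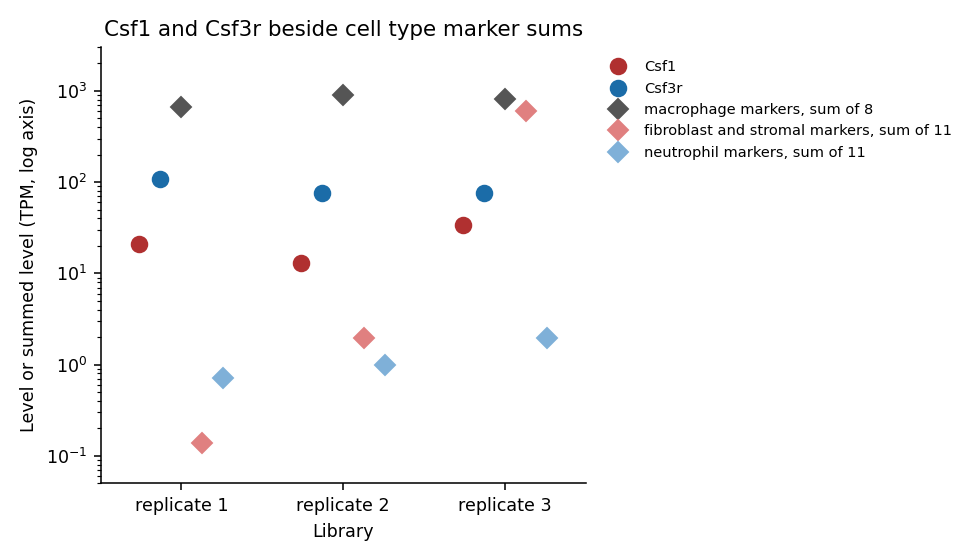
Level of Csf1 and Csf3r and summed level of the macrophage, stromal and neutrophil marker lists, in TPM on a log axis, in each library. The stromal sum is 606 TPM in replicate 3, against 0.14 and 1.95 TPM in replicates 1 and 2, while the neutrophil sum stays between 0.71 and 1.94 TPM.

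Csf1 is spliced into transcripts with different complete coding sequences. Csf1-201 and Csf1-203 encode the 552-residue precursor, and Csf1-202 encodes a shorter form of 257 residues. The long-form transcripts held 58.5%, 79.7% and 73.6% of the counts of these 3 transcripts in the read-based table, from 301, 524 and 1374 counts, and 64.3%, 97.1% and 89.0% in the alignment-based table. The long-form transcripts thus held more of these counts than Csf1-202 in every library and in both tables. Whether reads of unspliced RNA added to their share was not tested. Replicate 1 had the lowest share in each. Csf1-205, a transcript of 773 bases, was the highest of the gene per length in the read-based table, at 21.2 ± 5.60% of the TPM, but it held 6.82% of the read-based counts and 3.28% of the alignment-based TPM.

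Csf2ra, the alpha chain gene of the GM-CSF receptor, lies on chromosome 19 (61223957 to 61228429, minus strand, mm10) and spans 4473 bases. It had 147, 246 and 244 TPM in replicates 1, 2 and 3 (expected counts of 1535, 2443 and 3426), and averaged 213 ± 56.4 TPM (SD, n = 3). Replicate 1 was the lowest in both quantifications, and the read-based values were 155, 185 and 231 TPM. The high TPM came with a short effective length of 886, 705 and 813 bases. In TMM-normalized CPM, which takes no account of length, Csf2ra had 128, 150 and 170. Its mean of 149 CPM was below the means of Csf1r (359 CPM) and Csf3r (193 CPM), although in replicate 3 it was above Csf3r (156 CPM).

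Transcripts without a coding biotype made up 92.8 ± 1.28% of the read-based TPM of Csf2ra (SD, n = 3) and 92.0 ± 1.26% of its alignment-based TPM. By read-based counts, which give short transcripts less weight, the share was 86.4 ± 2.13%. Reads of unspliced RNA can match such transcripts too, so the share describes assigned reads and not finished isoforms. The coding transcripts Csf2ra-201 and Csf2ra-207, both encoding 388 residues, had 7.29 ± 1.49 and 6.12 ± 1.84 TPM in the read-based table, and 16.3 ± 2.12 and 0.18 ± 0.32 TPM in the alignment-based table. Transcripts under 1000 bases held 64.4% of the read-based TPM and 24.9% of the read-based counts. The most reads went to Csf2ra-202, a retained-intron transcript of 2277 bases with 1157, 1932 and 2854 read-based counts and 40.5 ± 8.61 TPM.

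Csf2ra-202 keeps introns 6, 7 and 8 of the 11 introns of Csf2ra-201 whole. These introns are 159, 106 and 139 bases long. Their edges are shown because reads across them match Csf2ra-202, or unspliced RNA, but not the spliced coding transcript; the exon is in capitals and the intron in lower case, read 5′ to 3′ on the minus strand from the GENCODE M21 transcript. All 3 introns begin with gt and end with ag, the usual letters of spliced introns. The lines give the edges of intron 6 (chr19:61226191-61226238 and chr19:61226032-61226079), intron 7 (chr19:61225904-61225951 and chr19:61225798-61225845) and intron 8 (chr19:61225768-61225815 and chr19:61225629-61225676), each with 24 bases on either side.
Intron 6, upstream edge: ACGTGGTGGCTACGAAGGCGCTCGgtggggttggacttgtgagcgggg
Intron 6, downstream edge: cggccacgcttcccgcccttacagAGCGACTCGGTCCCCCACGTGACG
Intron 7, upstream edge: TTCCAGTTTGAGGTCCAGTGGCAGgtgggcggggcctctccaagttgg
Intron 7, downstream edge: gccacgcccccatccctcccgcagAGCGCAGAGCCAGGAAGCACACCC
Intron 8, upstream edge: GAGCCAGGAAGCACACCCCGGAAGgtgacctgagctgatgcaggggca
Intron 8, downstream edge: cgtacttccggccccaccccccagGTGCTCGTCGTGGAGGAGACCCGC

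The beta chain genes Csf2rb and Csf2rb2 lie on chromosome 15 on opposite strands, 20030 bases apart: Csf2rb2 from 78282507 to 78305721 on the minus strand and Csf2rb from 78325752 to 78353847 on the plus strand (mm10). They are paralogs. The coding sequences of Csf2rb-201 (896 residues) and Csf2rb2-201 (878 residues) were identical at 2503 of 2628 aligned bases, or 95.2%, and the encoded proteins at 92.0% of aligned residues. The longest identical run was 242 bases. Of all windows of 50 bases in the 4764-base transcript Csf2rb-201, 18.9% were also found in a transcript of Csf2rb2, and of windows of 100 bases 7.16%. Reads from such stretches cannot be placed by sequence alone. In the deposited gene table the posterior SD of the count was 5.15, 5.19 and 5.88 reads for either gene, under 0.4% of the count.

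The stretch with the most differences and a part of the longest identical run show how far reads can tell the genes apart. In the first pair of lines, 60 bases of exon 4 (chr15:78338893-78338952 plus strand and chr15:78294379-78294438 minus strand, mm10, GENCODE M21), the 13 differing bases are in capitals. The second pair, 120 bases of exon 14 (chr15:78348577-78348696 plus strand and chr15:78284752-78284871 minus strand), has 0 differences.
Csf2rb exon 4: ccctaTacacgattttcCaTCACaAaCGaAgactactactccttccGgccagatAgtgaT
Csf2rb2 exon 4: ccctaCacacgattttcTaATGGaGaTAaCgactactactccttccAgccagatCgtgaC
Csf2rb exon 14: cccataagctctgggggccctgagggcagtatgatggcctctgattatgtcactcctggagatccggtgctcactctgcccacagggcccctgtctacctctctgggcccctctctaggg
Csf2rb2 exon 14: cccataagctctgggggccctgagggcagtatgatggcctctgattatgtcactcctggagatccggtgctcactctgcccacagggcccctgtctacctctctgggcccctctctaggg

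Csf2rb had 45.9, 53.9 and 61.6 TPM in replicates 1, 2 and 3 (expected counts of 1551, 2338 and 2974), and averaged 53.8 ± 7.87 TPM (SD, n = 3). Csf2rb2 had 24.5, 34.0 and 32.8 TPM, from 1306, 2078 and 2538 expected counts, and averaged 30.4 ± 5.17 TPM. Csf2rb was thus higher than Csf2rb2 in 3 of 3 libraries, by 0.88, 0.65 and 0.89 in log2(TPM + 1). The mean difference was 0.81 (SD 0.14; two-sided exact sign-flip test, p = 0.25, the smallest p that 3 libraries allow; 0.31 after adjustment over 5 pairs). The read-based quantification put Csf2rb at 157, 130 and 151 TPM and Csf2rb2 at 37.2, 37.8 and 43.1 TPM, a difference of 1.86. The direction was the same in both, but the size was not. In CPM the genes were closer, with 129, 143 and 148 CPM for Csf2rb and 109, 127 and 126 CPM for Csf2rb2.

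The transcripts to which reads of the beta chain genes were assigned differed in kind. Transcripts without a coding biotype held 68.8 ± 3.09% of the read-based TPM of Csf2rb and 12.0 ± 2.68% of that of Csf2rb2 (SD, n = 3). By read-based counts, which give short transcripts less weight, the shares were 38.0 ± 2.59% and 1.58 ± 0.37%. Most reads of Csf2rb were thus assigned to coding transcripts. Csf2rb-205, annotated as a retained-intron transcript of 2470 bases, keeps no intron of Csf2rb-201 whole, unlike Csf2ra-202 with introns of Csf2ra-201. It had 31.1 ± 0.83 TPM in the read-based table, against 20.4 ± 2.86 TPM for the coding Csf2rb-201. The alignment-based table had the opposite order of TPM in 3 of 3 libraries. Csf2rb-205 had 16.9, 21.1 and 20.8 TPM there, and Csf2rb-201 had 19.2, 26.4 and 27.6 TPM. Read-based counts also put Csf2rb-201, the longer transcript, above Csf2rb-205, at 1316, 2282 and 2954 against 1114, 1804 and 1954. A short processed transcript of 328 bases, Csf2rb-203, was the highest of Csf2rb per length in the read-based table at 28.1 ± 5.71% of its TPM; it held 2.85% of the read-based counts and was listed at 0 in the alignment-based table. For Csf2rb2, the coding Csf2rb2-201 led in both tables with 65.3 ± 3.55% and 98.9 ± 1.88% of the TPM. The annotation gives Csf2rb2 no retained-intron transcript, so the shares of the 2 genes follow different sets of annotated transcripts.

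Csf3r, the G-CSF receptor gene, lies on chromosome 4 (126024550 to 126044440, plus strand, mm10). It had 108, 76.3 and 75.8 TPM in replicates 1, 2 and 3 (expected counts of 3002, 2794 and 3153), and averaged 86.8 ± 18.6 TPM (SD, n = 3). Replicate 1 was the highest, also in the read-based table with 139, 107 and 97.8 TPM and in TMM-normalized CPM with 250, 171 and 156. Neutrophils are the main cells that carry this receptor, and all 11 neutrophil markers were under 1 TPM in every library of the alignment-based gene table, with sums of 0.71, 1.00 and 1.94 TPM in replicates 1, 2 and 3, and Mpo, encoding the granule enzyme myeloperoxidase, at 0. In the read-based table the highest neutrophil marker was Cxcr2, a chemokine receptor gene named here after its value was seen, with a mean of 4.34 TPM. Mpo had a mean of 1.95 TPM there. Whether RNA of neutrophils had a part in the Csf3r level was not tested.

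The main Csf3r transcripts, Csf3r-201 and Csf3r-202, encode the same 837 residues, and Csf3r-202 starts 2742 bases further upstream. The upstream-start transcript held 53.8%, 57.3% and 48.4% of the counts of the pair in the read-based table, but 15.8%, 11.4% and 11.3% in the alignment-based table, so the start in use is uncertain. Csf3r-204, a processed transcript of 696 bases without a coding biotype, had 33.6 ± 5.18 TPM in the read-based table and 3.82 ± 1.16 TPM in the alignment-based table. There, Csf3r-203, a processed transcript of 921 bases, held most of the non-coding share, with 15.4 ± 8.75 TPM.

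Across the 6 genes, 2 had more than 50% of their read-based TPM in transcripts without a coding biotype, Csf2ra and Csf2rb, against 68.5% of the 6581 protein-coding genes that averaged 10 TPM or more and have such a transcript in the annotation. The alignment-based table also gave 2 of 6, against 59.1% of 5421 genes. The median share was 25.7% over the 6 genes and 62.6% over all genes in the read-based table, and 22.9% and 55.8% in the alignment-based table. Csf2ra stood above 94.6% of all genes in this share, Csf2rb above 60.2%, Csf3r above 12.5%, Csf1r above 7.73%, Csf1 above 4.56% and Csf2rb2 above 3.59%, all read-based. Csf2ra was therefore near the top of the range and 4 of the 6 genes near the bottom. By counts in place of TPM, the share of Csf2rb was under 50%, at 38.0% read-based and 28.7% alignment-based. That of Csf2ra stayed above 50%, at 86.4% and 84.0%. The shares over all genes were not computed by counts. All these shares follow how reads were assigned to annotated transcripts, and unspliced RNA was not set apart.

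**Figure D3:**
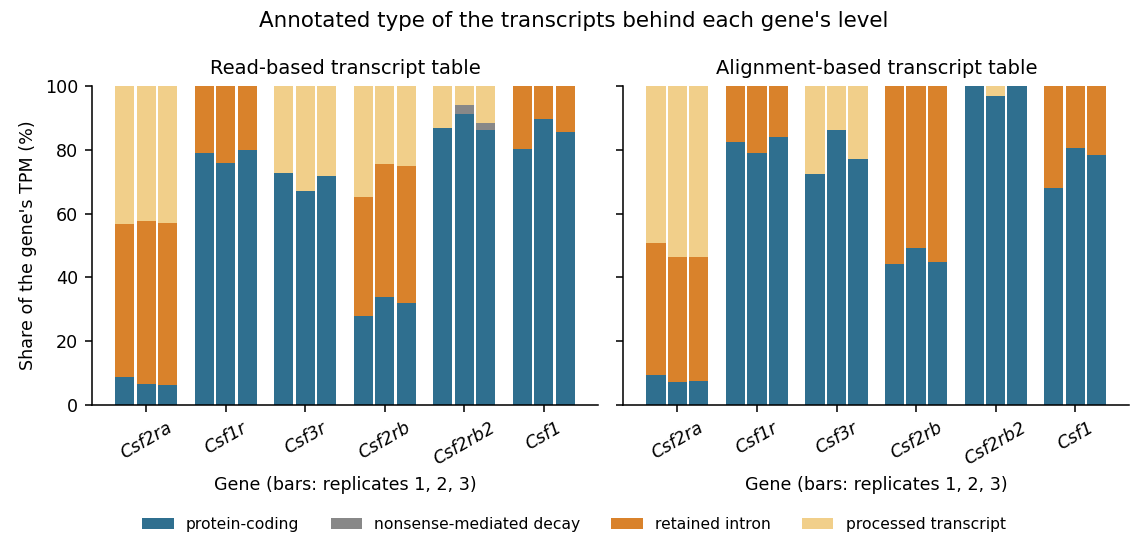
Share of each gene's TPM in percent by annotated type of transcript, with 1 bar for each of replicates 1, 2 and 3, from the read-based (left) and alignment-based (right) transcript tables. Coding transcripts make up the smallest part for Csf2ra in both tables, and the Csf2rb bars contain processed transcripts in the read-based table alone.

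Neighbours in the order of levels were compared within libraries. Csf2ra exceeded Csf1r by 0.23, 0.94 and 0.94 in log2(TPM + 1) in replicates 1, 2 and 3 (mean 0.70, SD 0.41), and Csf1r exceeded Csf3r by 0.21, 0.74 and 0.74 (mean 0.56, SD 0.31). Csf3r exceeded Csf2rb by 1.22, 0.49 and 0.29 (mean 0.67, SD 0.49). Each of these differences had the same sign in 3 of 3 libraries, with p = 0.25 in the two-sided exact sign-flip test and 0.31 after adjustment. Csf2rb2 and Csf1 did not separate: Csf2rb2 was higher by 0.23 and 1.31 in replicates 1 and 2 and lower by -0.03 in replicate 3 (mean 0.50, SD 0.71, exact p = 0.50, adjusted 0.50). No pair could pass 0.05 with 3 libraries.

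The order of the genes above Csf2rb2 and Csf1 depended on the quantification and the scale. In mean TMM-normalized CPM, which takes no account of length, Csf1r and Csf3r lay above Csf2ra. In the read-based table Csf2rb lay above Csf3r in 3 of 3 libraries, with a mean difference of -0.36 for Csf3r minus Csf2rb, and the lead of Csf2ra over Csf1r shrank to 0.10, with 2 of 3 libraries in that direction. Csf2rb2 and Csf1 were the lowest of the 6 in both tables.

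Variation between the libraries was tested in a fit across 14839 genes, in which each gene's quasi-dispersion (edgeR, quasi-likelihood) was compared with the trend at its level. None of the 6 genes passed after Benjamini-Hochberg adjustment, and neither did any other gene of the fit, so the share called was 0%. An unadjusted p under 0.05 in edgeR was reached by 752 genes, or 5.07%, and DESeq2 marked 155 as dispersion outliers. The filter on counts left all 11 fibroblast and stromal markers out of the fit. Without the filter, 0 of 25532 genes were called. With no gene called, the adjusted test cannot tell steady genes from varying ones. Of the 6 genes, 1 was at an unadjusted p under 0.05. This was Csf1 (unadjusted p = 0.00688, adjusted p = 0.54). Its unadjusted p in edgeR was 0.0706 without replicate 3 and 0.0582 with a robust prior, a setting chosen after seeing the data. Csf3r followed (unadjusted p = 0.0668, or 0.0471 without replicate 2, adjusted p = 0.99 in both), and the adjusted p of each of the other 4 was 0.99. DESeq2 marked none of the 6. In fits of 2 libraries, the genes called were 8 of 15260 without replicate 1 and 0 of 14884 without replicate 2. Without replicate 3 they were 74 of 14603. The 6 genes were not among those called, and with so few called this says little about the 6. Their lowest adjusted p in edgeR was 0.27, for Csf1 without replicate 1.

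Ratios between pairs of libraries show where the genes moved. They are of TMM-normalized CPM with 0.5 counts added, over the 16200 genes that averaged 10 or more counts; each library is 1 sample, so there is no test. Between replicate 3 and replicate 1, 0 of the 6 genes were at least 2-fold apart, against 12.5% of all genes. Between replicate 3 and replicate 2, 1 of 6 was, against 9.86% of all genes, and this was Csf1, 2.53-fold higher in replicate 3 (log2 ratio 1.34). Between replicate 1 and replicate 2, 0 of 6 were, against 7.34%. Csf1 was also higher in replicate 3 than in replicate 1 by 0.78 in log2, and Csf3r was lower there by -0.68.

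**Figure D4:**
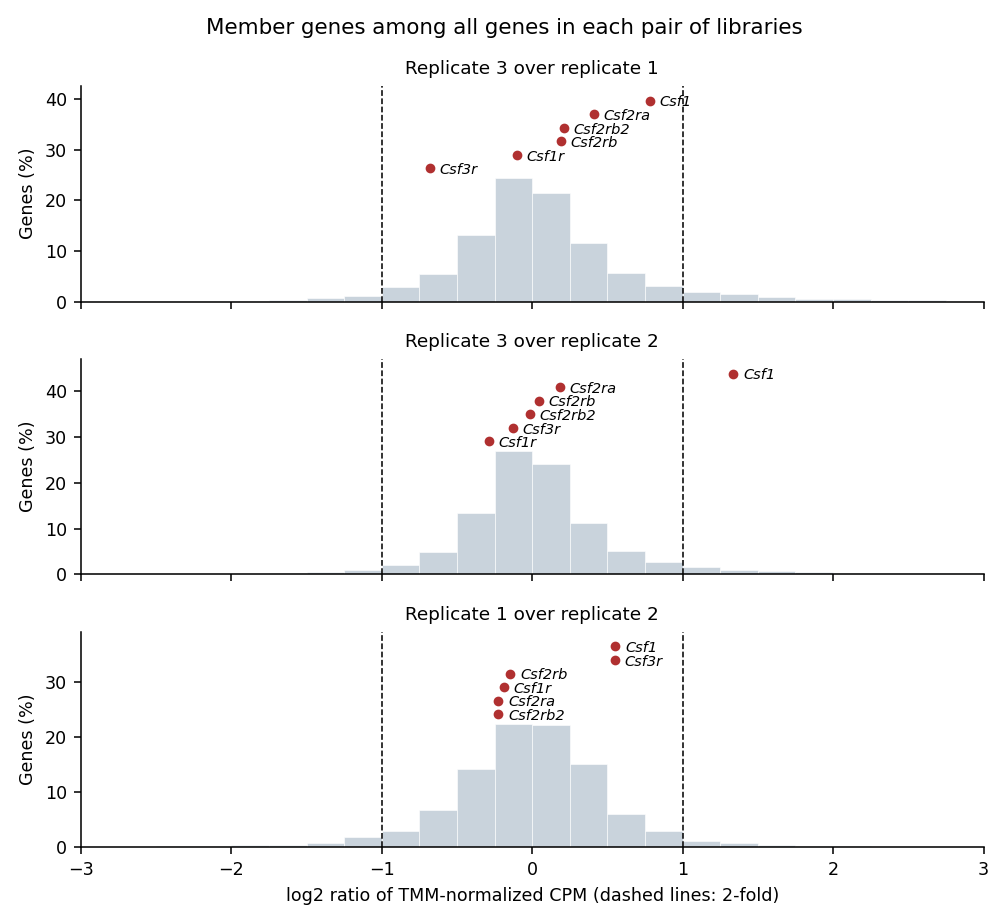
Distribution of log2 ratios of TMM-normalized CPM over all genes (grey bars, percent of genes) for each pair of libraries, with the 6 genes as red points at their own ratio; the height of a point has no meaning. Dashed lines mark 2-fold, and Csf1 in replicate 3 over replicate 2, at 1.34, is the only point outside them.

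Genes with the most similar pattern over the 3 libraries were sought among 7902 other protein-coding genes of at least 5 TPM, by the largest difference in centred log2 CPM in any library. For Csf1 they were Rpl21, a ribosomal protein gene whose reads may be shared with pseudogene copies (difference 0.01), and the C-type lectin receptor genes Clec4e (0.03) and Clec4n (0.04), and only 8 genes lay within 0.1 of its pattern. Csf3r had 104 genes within 0.1, the closest being Ubl7, H2-T24 and Adprm. Csf2ra had 454, led by BC030499, Slc25a39 and Man1b1. The flat patterns were common: 868 genes lay within 0.1 of Csf1r, led by Zfp217, Camkmt and Ostf1, 1057 within 0.1 of Csf2rb, led by Psd4, Smg5 and Myg1, and 970 within 0.1 of Csf2rb2, led by Adipor2, Mybbp1a and Polr1a. A likeness over 3 libraries is a description and was not tested.

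Of the 6 ligand genes, Csf1 alone reached 1 TPM in every library. Il34, encoding the other ligand of the Csf1r receptor, had 0.76, 0.35 and 0.27 TPM in replicates 1, 2 and 3, and Csf3, encoding G-CSF, averaged 0.12 ± 0.02 TPM. Csf2, encoding GM-CSF, and Il3 had 0 counts in every library of the gene table; a count of 0 allows up to 3 counts, or 0.254, 0.174 and 0.154 CPM. The read-based mean of Csf2 was 0.18 TPM. Il3ra, the alpha chain that joins a beta chain to bind interleukin-3, had 19.2, 17.8 and 17.7 TPM (18.2 ± 0.83). Il5ra, the corresponding chain for interleukin-5, was at 0 in the gene table and had a read-based mean of 1.39 TPM. In the gene table, RNA of the alpha chain genes Csf2ra and Il3ra was thus at 10 TPM or more. The matching ligand genes, Csf2 and Il3, had 0 counts there. Most of the Csf2ra TPM was in transcripts without a coding biotype.

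The signal carriers of the receptors were present throughout, since all 17 reached 1 TPM in each library and 16 had a mean of at least 10 TPM. The highest were Lyn, a Src-family kinase, at 178 ± 39.3 TPM, Tyk2, a JAK kinase, at 107 ± 12.8 TPM, and Stat3, a transcription factor activated by the G-CSF receptor, at 82.8 ± 29.9 TPM; Sos1, an activator of Ras, was the lowest at 9.10 ± 1.37 TPM. Jak2, the kinase bound to the beta chain, averaged 34.6 ± 7.38 TPM, and its targets Stat5a and Stat5b, which are near-identical in part and share reads, 12.9 ± 2.57 and 14.2 ± 0.51 TPM; these 3 were named after their values were seen. In the edgeR test none of the 17 passed after adjustment (0% of the genes tested did). There, 1 of the 17 had an unadjusted p under 0.05, against 5.07% of the genes tested. Read-based means were over 1.5 times as high for 7 of the 17. The share over all genes was not computed, here or for the lists below. In the read-based table Pik3cd, named after its value was seen, had a mean of 152 TPM. This was above Stat3 at 146 TPM and Tyk2 at 108 TPM there.

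Inhibitors of receptor signalling reached 1 TPM in every library in 10 of 12 cases. Inpp5d, encoding the lipid phosphatase SHIP1, was at 200 ± 51.2 TPM, Ptpn6, encoding the tyrosine phosphatase SHP-1, at 118 ± 7.92 TPM, and Cbl, a ubiquitin ligase that acts on the Csf1r receptor, at 70.8 ± 2.68 TPM. The lowest was Socs2, a feedback inhibitor of STAT5 signals, at 0.25 ± 0.15 TPM. Read-based means were over 1.5 times as high for 6 of the 12, among them Cbl at 278 TPM, Ptpn6 at 303 TPM, Inpp5d at 306 TPM and Socs2 at 3.11 TPM; in that table Cish, another feedback inhibitor, was the lowest at 0.50 TPM. None passed the edgeR test after adjustment (0% of the genes tested did). Of the 11 inhibitors tested, 1 had an unadjusted p under 0.05 there, against 5.07% of the genes tested.

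Of 8 transcription factors of myeloid receptor genes, 7 reached 1 TPM in every library. Irf8 was at 106 ± 34.4 TPM, Runx1 at 70.3 ± 5.30 TPM and Spi1, encoding PU.1, a known activator of Csf1r, at 61.6 ± 6.67 TPM, whereas Cebpe, a factor of late neutrophil development, averaged 0.03 TPM. After adjustment none passed the edgeR test (0% of the genes tested did). Of the 7 factors tested, 1 had an unadjusted p under 0.05 there, against 5.07% of the genes tested. Read-based means were over 1.5 times as high for 3 of the 8. All 4 genes of the shedding list reached 10 TPM. Adam17, the protease that releases the outer part of the Csf1r receptor, had 50.8 ± 1.33 TPM. Its partner Rhbdf2 had 48.1 ± 3.82 TPM, the protease gene Furin 27.2 ± 4.93 TPM and Adam10 15.7 ± 1.81 TPM. None of these 4 was under an unadjusted p of 0.05 in the edgeR test, against 5.07% of the genes tested.

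**Figure D5:**
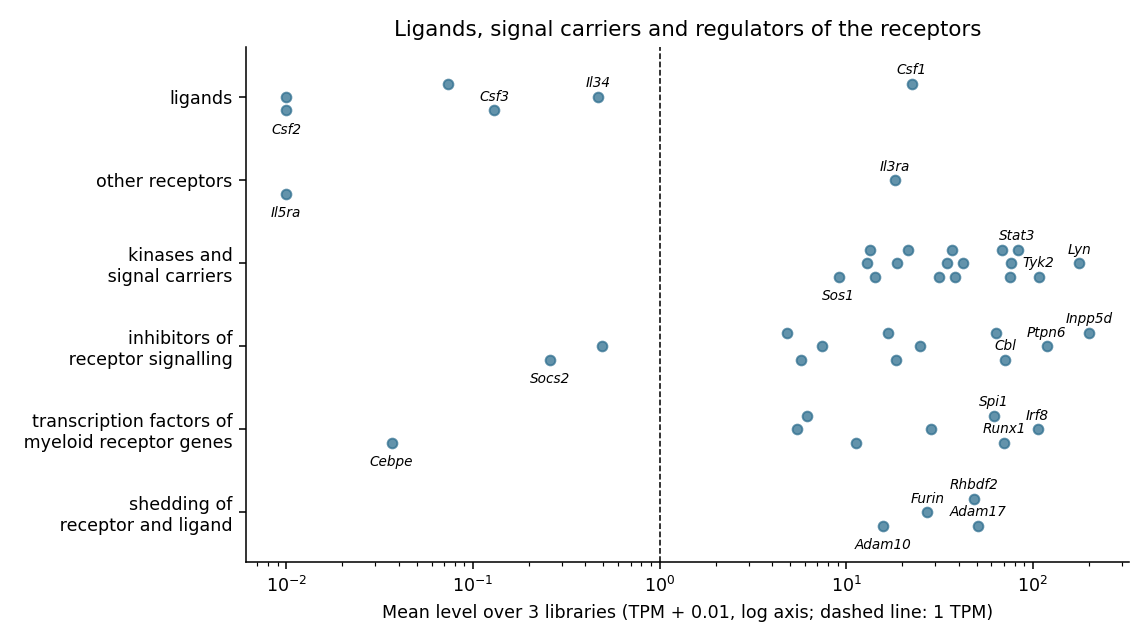
Mean level over the 3 libraries in TPM plus 0.01 (log axis) of each gene in the lists of ligands, other receptors, signal carriers, inhibitors, transcription factors and shedding genes; the 3 highest and the lowest of each list are named. Ligands other than Csf1 lie below the dashed line at 1 TPM, and all 17 signal carriers lie above it.

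The macrophage label was checked against markers. All 8 macrophage markers reached 1 TPM in every library, with summed levels of 664, 907 and 809 TPM in replicates 1, 2 and 3. The 11 fibroblast and stromal markers summed to 0.14, 1.95 and 606 TPM. The check therefore does not show that replicate 3 held RNA of macrophages alone. The sums were 1.45, 0.28 and 1.15 TPM for 6 mast cell and basophil markers, 3.39, 3.66 and 6.32 TPM for 5 osteoclast markers and 7.28, 10.7 and 7.06 TPM for 6 dendritic markers. The 6 endothelial markers summed to 38.5, 26.4 and 39.1 TPM, with Tie1 at 0 and Vwf, named after its value was seen, averaging 26.8 TPM.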

How the data were processed

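Total RNA of the chromatin fraction was measured in 3 libraries. Per the README files deposited with them, reads were quantified on mm10 with GENCODE M21; the sources used here name no aligner, version or strand setting. The authors deposited expected counts, estimated reads per gene without normalization, and TPM, scaled by the authors over all rows to 1000000. The read-based table deposited by the authors holds estimated counts and TPM per transcript. Totals were 11958978, 17283529 and 19475027 expected counts in replicates 1, 2 and 3; rows that name no gene, 1.31%, 0.476% and 0.240%, were left out. Counts of every pair of libraries differed far beyond sampling noise, with a chi-square per degree of freedom of 35.6 or more. Floors cover counting error only.

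Expected counts were rounded to whole numbers and fitted with edgeR 4.0.16 (R 4.3.3; filterByExpr, TMM, intercept only); DESeq2 1.42.0 was an alternative. The fit was also run on simulated counts. These had the same dispersion for every gene, lower than in these data, so that run does not show how the test performs here. Order tests were exact sign-flips over 3 libraries on log2(TPM + 1). Sequences come from GENCODE M21 and were aligned with Biopython 1.88. Other steps ran in Python 3.11.15 with pandas 2.3.3, numpy 2.4.6, matplotlib 3.10.9 and scipy 1.17.1.

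The genes and the lists were chosen with earlier results of these data known. Named are the 6 genes, the 3 highest and the lowest of each pathway list, the 3 most similar in pattern, Col1a1 and Sparc; Hmgxb3, for its overlap with Csf1r, Cish, and the markers Mpo and Tie1 were named after their values were seen, as were others so marked in the text. P-values of the edgeR test refer to the spread between these libraries. The sign-flip p is 0.25 whenever all 3 libraries have the same sign, whatever their spread. Alternatives were the other quantification, renormalized TPM, other pseudocounts, filters and normalizations, and each replicate left out.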

Additional observations from a re-analysis of the deposited data

How the results depend on the processing

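Read-based TPM gave means of 175 for Csf1r, 34.1 for Csf1, 146 for Csf2rb, 39.4 for Csf2rb2 and 115 for Csf3r, and TPM rescaled to the sum of the nuclear protein-coding and lncRNA genes gave 296 for Csf1r, 53.1 for Csf1, 487 for Csf2ra, 125 for Csf2rb, 70.2 for Csf2rb2 and 205 for Csf3r. Csf3r minus Csf2rb reversed to -0.36 in the read-based table, and the cause was not tested. The share of the leading transcript was 30.1% for Csf1r, 3.28% for Csf1, 0% for Csf2rb, 98.9% for Csf2rb2 and 9.13% for Csf3r in alignment-based TPM, and 69.2% for Csf1r, 6.82% for Csf1, 11.6% for Csf2ra, 2.85% for Csf2rb, 79.2% for Csf2rb2 and 49.8% for Csf3r in read-based counts. The share without a coding biotype was 18.3% for Csf1r, 24.3% for Csf1, 54.0% for Csf2rb, 1.09% for Csf2rb2 and 21.4% for Csf3r in alignment-based TPM. Genes more variable than the trend numbered 0 to 74 with each replicate left out, 155 as DESeq2 outliers and 0 with a robust prior, an alternative chosen after seeing the data. Leaving out each replicate gave 16.9 to 27.1 TPM for Csf1 and 0.10 to 0.77 for Csf2rb2 minus Csf1.

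In all, 149 of 180 alternative values kept their direction and side of the threshold or moved by less than the spread between replicates. Part of this count was fixed in advance. Leaving out a replicate always moves a mean level or mean share by less than the SD between replicates. It also cannot reverse a mean difference that has the same sign in every library. The total is therefore not a measure of how robust the results are. The alternatives for Csf2ra minus Csf1r and Csf3r minus Csf2rb were added after seeing the order of the levels, which decided the pairs; Csf3r minus Csf2ra and Csf2ra minus Csf2rb were not run because these genes are not neighbours in it. No paired analysis was possible because there is only 1 group.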
